A study of Mus musculus with 4 samples.

Results

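The thyroid specification factors Pax8, Nkx2-1, Foxe1 and Hhex and the thyrotropin receptor gene Tshr were followed from cell to cell in the postnatal mouse thyroid. These 5 genes were taken by their symbols from the 32285 genes in the count tables, and all 5 were detected in all 4 libraries. Thyroids of C57BL/6 mice with no further genotype or treatment were taken at postnatal day 5, 10, 20 and 30, and several mice were pooled into 1 droplet single-cell library per age. Each library was therefore a single sample of its age, so no age had a replicate and no test across ages was made, and the libraries served as replicates only for comparisons between cell classes. Levels were given as unique molecular identifier (UMI) counts per 1000000 UMIs of a class in a library (CPM), which compares 1 gene between classes but not different genes with each other.

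In the thyroid primordium the paired-box factor Pax8, the homeobox factors Nkx2-1 and Hhex and the forkhead factor Foxe1 are expressed together, and loss of any of them impairs the gland. In the grown gland Pax8 and Nkx2-1 bind the promoter of the thyroglobulin gene Tg, and the receptor Tshr passes the pituitary signal thyrotropin to cyclic AMP through the G protein encoded by Gnas. Nkx2-1 is also known from calcitonin-producing C cells, lung and brain, and Hhex from endothelial, blood-forming, liver and pancreatic cells, whereas Pax8 outside the thyroid is known from kidney and the Müllerian tract.

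Promoters of Pax8, Nkx2-1 and Hhex, the 3 members with a window in the table used here, are shown because these genes differed in where they were detected. Each is a RefSeq window of 300 bases in GRCm38.p6, from 250 bases before the RefSeq start of the gene to 50 after it, printed in the direction of transcription. Capitals mark AAGTG or its reverse complement CACTT, letters found in many sites of Nkx2 factors. The windows lie at chr2:24475550-24475849 on the minus strand for Pax8, chr12:56536859-56537158 on the minus strand for Nkx2-1 and chr19:37434591-37434890 on the plus strand for Hhex.
Pax8: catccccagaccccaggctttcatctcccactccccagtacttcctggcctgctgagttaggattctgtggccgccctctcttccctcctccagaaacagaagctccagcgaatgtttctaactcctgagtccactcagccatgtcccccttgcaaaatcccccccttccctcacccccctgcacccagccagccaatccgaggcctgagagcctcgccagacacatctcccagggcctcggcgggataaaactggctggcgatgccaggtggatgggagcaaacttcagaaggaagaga
Nkx2-1: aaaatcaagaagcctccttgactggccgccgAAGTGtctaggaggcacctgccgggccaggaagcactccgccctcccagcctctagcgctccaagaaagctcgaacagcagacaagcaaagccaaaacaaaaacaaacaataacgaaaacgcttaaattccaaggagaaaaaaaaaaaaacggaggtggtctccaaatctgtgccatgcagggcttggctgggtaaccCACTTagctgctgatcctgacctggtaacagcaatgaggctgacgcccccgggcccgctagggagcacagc
Hhex: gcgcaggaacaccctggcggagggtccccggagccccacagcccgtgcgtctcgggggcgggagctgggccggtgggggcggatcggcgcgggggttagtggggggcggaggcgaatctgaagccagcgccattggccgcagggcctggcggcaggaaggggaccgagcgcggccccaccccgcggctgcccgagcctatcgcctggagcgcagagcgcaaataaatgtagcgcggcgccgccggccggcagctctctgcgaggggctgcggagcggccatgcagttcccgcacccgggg
The Nkx2-1 window held 2 matches, which began at -219 and -21 from the start of the gene, and the Pax8 and Hhex windows held 0. Of 32851 promoter windows of this length, 46.4% held at least 1 match and 13.7% held 2 or more. The Hhex window held 37 CG dinucleotides, against a median of 7 and a 90th percentile of 31 over all windows, and the Pax8 and Nkx2-1 windows held 7 and 12. Such matches describe letters only, and binding was not measured. Foxe1 and Tshr are named here without a promoter sequence. The genes themselves lie, in GRCm38 with GENCODE annotation, at chr2:24420560-24475599 (Pax8), chr12:56531958-56536908 (Nkx2-1), chr4:46343609-46346412 (Foxe1), chr19:37434810-37440731 (Hhex) and chr12:91384563-91549808 (Tshr). The GENCODE start of Hhex lies upstream of the RefSeq start that its window uses. Pax8, Nkx2-1 and Foxe1 each overlap a gene on the opposite strand (Gm13415, Gm26973 and Gm12446), and Tshr overlaps Gm18827 on the same strand, which is not among the counted genes.

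The libraries held 54921806 to 89039113 UMIs. After filters on mitochondrial and hemoglobin UMIs and removal of the highest doublet scores, 29582 cells were used, 12957, 5653, 6151 and 4821 in the libraries labelled day 5, 10, 20 and 30. Clusters were named from fixed markers, so that each class name stands for cells like that type. There were 4360 thyroid follicular cells (TFCs), 425 C cells and 6252 endothelial cells. Tg, Iyd and Cdh16 were highest in TFCs in every library, whereas Epcam was highest in C cells. Calca, Scg2 and Gfra4 were highest in C cells, Chga was higher in parathyroid cells, and Calcb reached only 1.97 to 7.25 CPM. The 6 endothelial markers were highest in endothelial cells. Follicular clusters rich in doublet scores, with 520, 85, 54 and 71 cells in the 4 libraries before doublet removal, of which 184, 73, 30 and 63 had high scores, were kept out of the TFC class.

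The age labels of the libraries did not match 1 fetal gene. H19, which is known to fall after birth, stood in fibroblasts at 63.0 CPM in the library labelled day 5, 813 at day 10, 123 at day 20 and 2887 at day 30, so its highest level was in the library labelled as the oldest. In the authors' list of cells, 6506 barcodes numbered 1 were those of the library labelled day 30, 7782 numbered 2 those of day 10, 7744 numbered 3 those of day 20 and 15223 numbered 4 those of the library labelled day 5. In this order H19 fell from each library to the next. The study's text gives its largest cell number for day 30, whereas the library labelled day 5 held the most cells here. Ages are therefore written below as labels of libraries, and exchanging the labels of any pair of libraries would turn the sign of the ratio between them. In the 3 libraries labelled day 10, 20 and 30, between 97.4% and 98.8% of cell barcodes also occurred in the others of these 3, with medians of 8 to 12 UMIs there. With the library labelled day 5, 33.6% to 49.9% of barcodes were shared, with a median of 1 UMI.

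All 5 genes were higher in TFCs than in endothelial cells. In TFCs of the libraries labelled day 5, 10, 20 and 30 Pax8 stood at 254, 321, 338 and 433 CPM, and in endothelial cells at 5.84, 2.20, 3.67 and 2.51 CPM. Nkx2-1 stood at 299, 400, 366 and 434 CPM in TFCs and at 6.41, 3.04, 1.47 and 3.10 CPM in endothelial cells. Every TFC value of both factors lay far above every endothelial value. Foxe1 stood at 486, 565, 505 and 707 CPM in TFCs and at 9.73, 4.82, 2.57 and 2.98 CPM in endothelial cells. The receptor gene Tshr stood at 60.6, 45.9, 19.5 and 37.1 CPM in TFCs and at 1.46, 0.314, 0.367 and 0 CPM in endothelial cells, the last with a level of up to 0.358 CPM allowed by a count of 0. The groups of Foxe1 and Tshr did not overlap either. Hhex stood apart from this pattern, at 138, 220, 133 and 262 CPM in TFCs and 54.0, 67.6, 66.8 and 72.4 CPM in endothelial cells, close to each other but with no overlap. How many of all genes show no overlap between classes, or the same direction in every library, was not counted here or below. Neither is therefore read as particular to these genes.

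**Figure D1:**
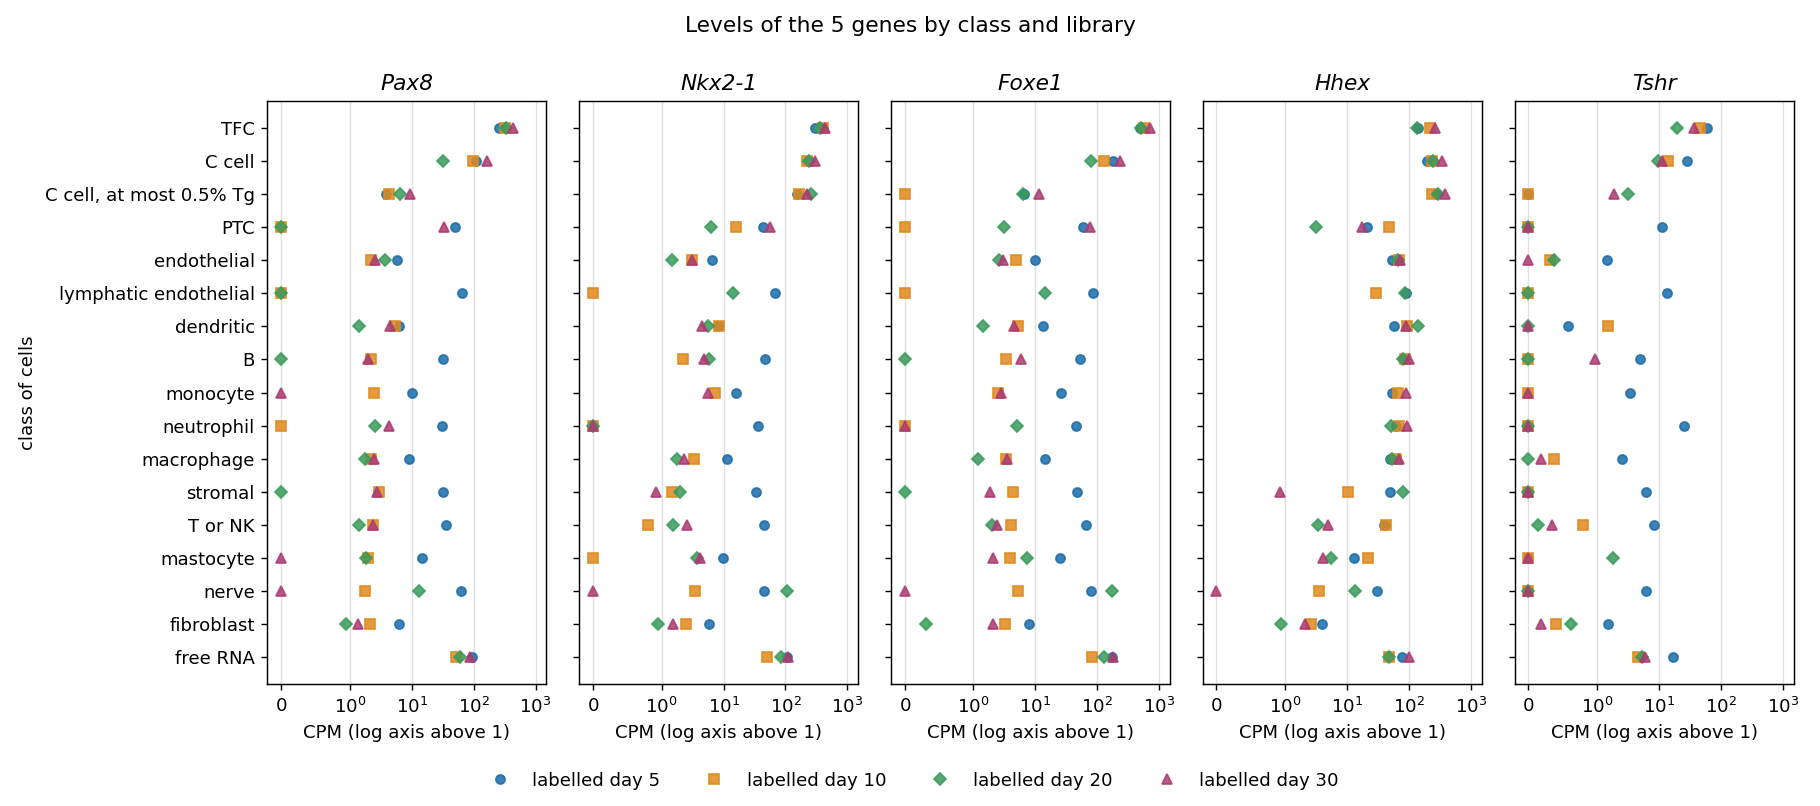
Levels of Pax8, Nkx2-1, Foxe1, Hhex and Tshr (CPM, on a log axis with a linear stretch near 0) in each named cell class (PTC, parathyroid cells), in C cells with at most 0.5% Tg and in droplets without a cell (free RNA), 1 point per library as labelled. By their medians over libraries Pax8, Nkx2-1, Foxe1 and Tshr are highest in TFCs with C cells next, though Foxe1 in the library labelled day 20 stands at 171 CPM in nerve cells (13 UMIs) and 78.7 CPM in C cells, whereas Hhex also stands between 49.7 and 138 CPM in dendritic, B, endothelial, monocyte, neutrophil and macrophage classes.

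UMIs were summed per class and library, and classes were compared by edgeR's quasi-likelihood test, in which each library was a block. TFCs exceeded endothelial cells by a log2 fold change of 7.17 for Pax8, 7.10 for Nkx2-1, 7.30 for Foxe1 and 6.86 for Tshr. The change of Hhex was 1.55 ± 0.52 (SE, adjusted p = 0.0098, edgeR's quasi-likelihood test with Benjamini-Hochberg adjustment over 13137 genes). All 5 members were called higher, against a background of 27.5% of genes called higher, 25.2% called lower and 52.7% called in either direction. The call of Hhex was lost without the library labelled day 10, with a log2 fold change of 1.35 and an adjusted p of 0.0865, over a range of 6.9e-06 to 0.0865 among its alternatives by edgeR and DESeq2. Against the mean of all other classes the log2 fold changes in TFCs were 5.84, 5.42, 5.87, 2.21 and 5.07 in the order Pax8, Nkx2-1, Foxe1, Hhex and Tshr, again with all 5 called higher, where 34.5% of genes were called higher and 50.1% in either direction. Without the library labelled day 5 these changes were 7.21 for Pax8, 6.56 for Nkx2-1, 6.62 for Foxe1 and 7.31 for Tshr, and without that labelled day 20 Pax8 stood at 5.25. The clusters had been formed without these 5 genes among their variable features.

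By medians over libraries, C cells came next after TFCs for 4 of the 5 genes and before TFCs for Hhex. For Pax8 and Foxe1 the lowest TFC value lay above the highest C cell value. For Nkx2-1 and Tshr the TFC and C cell ranges overlapped. The lowest C cell value of Nkx2-1 lay above every value of the classes after it. That of Tshr, 9.84 CPM from 5 UMIs, lay below the highest values of neutrophils (25.3 CPM), lymphatic endothelial cells (13.4 CPM) and parathyroid cells (11.1 CPM). These 3 values were from 5, 5 and 7 UMIs in the library labelled day 5. In its cells with at most 0.5% Tg the 3 classes held 0, 1 and 0 Tshr UMIs, where 0 UMIs allow up to 18.3 CPM in neutrophils and 6.45 CPM in parathyroid cells. Pax8 from the third class on overlapped with its neighbours, with class medians of 0 to 16.3 CPM. The library labelled day 5 reached 64.2 CPM of Pax8 in its lymphatic endothelial cells and 35.4 CPM in its T or NK cells, beside 14931 and 7028 CPM of Tg. In the other libraries T or NK cells held at most 2.41 CPM of Pax8, lymphatic endothelial cells of the libraries labelled day 10 and 20 held 0 UMIs, which allows up to 22.3 and 42.3 CPM, and both classes held at most 706 CPM of Tg.

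Free RNA was read from droplets without a cell. In droplets with 10 to 100 UMIs the 4 libraries held 51.7 to 95.6 CPM of Pax8, 50.6 to 112 of Nkx2-1, 83.6 to 177 of Foxe1, 47.4 to 100.2 of Hhex and 4.60 to 16.8 of Tshr, beside 8489 to 17042 CPM of Tg. The UMIs of each member were also set against the Tg UMIs of the same class and library, divided by the same ratio in TFCs. A class with a value near 1 held the member and Tg in the proportion of TFCs. Over 14 other classes the median of this value over libraries ran from 0 to 0.924 for Pax8, 0.332 to 0.949 for Foxe1 and 0 to 1.20 for Tshr. For Nkx2-1 it ran from 0 to 2.27. For Hhex it ran from 1.22 to 41.4 and exceeded 2 in 12 of the 14 classes. Among the other members only Nkx2-1 exceeded 2, in 1 class, the parathyroid cells, and the median of Tshr exceeded 1 without reaching 2. In parathyroid cells, with 19 to 47 cells per library, Nkx2-1 ran from 6.27 to 55.3 CPM, so that median rests on few cells of unlike libraries. In the libraries labelled day 5, 10, 20 and 30 free RNA itself held 7.18, 6.09, 3.56 and 9.98 UMIs of Pax8 per 1000 Tg UMIs. TFCs held 4.94, 7.66, 4.94 and 12.6, so for Pax8 the proportions differed, in both directions. For Tshr free RNA and TFCs were close in the libraries labelled day 5 (1.26 and 1.18) and day 20 (0.316 and 0.285), and not in the others. The part of free RNA in the levels of a class was not tested.

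C cells, which secrete calcitonin from the gene Calca, held both TFC genes and genes of their own. Over all C cells of the libraries labelled day 5, 10, 20 and 30 Pax8 stood at 110, 96.7, 31.5 and 162 CPM, with Tg at 23418, 14099, 8304 and 12926 CPM. Foxe1 stood at 182, 130, 78.7 and 229 CPM and Tshr at 28.8, 13.9, 9.84 and 11.3 CPM. For these 3 genes the library labelled day 20 was lowest, as it was for Tg. Nkx2-1 stood at 228, 223, 238 and 305 CPM and Hhex at 196, 232, 246 and 343 CPM, with the library labelled day 20 close to the others. Per Tg UMI, Pax8 in all C cells stood at 0.768 to 0.990 of its TFC value.

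In the comparison of TFCs with all C cells, Pax8, Foxe1 and Tshr were called higher in TFCs and Nkx2-1 and Hhex were not called. The log2 fold changes were 1.98 ± 0.49 for Pax8 (SE, adjusted p = 0.0018), 2.02 ± 0.57 for Foxe1 (adjusted p = 0.0064) and 1.61 ± 0.46 for Tshr (adjusted p = 0.0069) by edgeR's quasi-likelihood test. Tg itself changed by 1.81 (adjusted p = 0.0417, edgeR), beside 1.61 to 2.02 for these 3 genes. Nkx2-1 differed by 0.60 ± 0.50 (SE, adjusted p = 0.403, edgeR) and Hhex by -0.49 ± 0.51 (SE, adjusted p = 0.515, edgeR). Nkx2-1 was higher in TFCs than in C cells in 4 of 4 libraries and Hhex lower in 4 of 4. Where only TFCs and all C cells entered the fit, Hhex was called lower in TFCs (-0.66, adjusted p = 0.0031, edgeR, over a range of 0.0031 to 0.729 among its alternatives) and Nkx2-1 higher (0.38, adjusted p = 0.0245, edgeR). Nkx2-1 was also called with at most 10000 UMIs per cell (1.31, adjusted p = 0.0187, edgeR) and with cells thinned to 1000 UMIs (1.07, adjusted p = 0.0346, edgeR), over a range of 0.0187 to 0.791 among its alternatives. The 3 of 5 members called higher stand against 14.4% of genes called higher, 11.8% called lower and 26.2% called in either direction. The calls were lost without the library labelled day 20 for Pax8 (1.37), without day 10 (1.86) or day 20 (1.63) for Foxe1, and without day 10 (1.44) or day 30 (1.38) for Tshr, with DESeq2 for Foxe1 (1.80) and Tshr (1.31), and without the library block for Pax8 (1.69), Foxe1 (1.82) and Tshr (1.25).

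A share of the C cells carried much Tg. In the libraries labelled day 5, 10, 20 and 30, 83, 18, 7 and 7 C cells had over 0.5% of their UMIs from Tg, at medians of 17732, 41135, 30765 and 61970 UMIs per cell. The other 102, 96, 38 and 74 C cells, here called Tg-poor, had medians of 7824, 10127, 3124 and 2518 UMIs. Calca made up 57122 to 187241 CPM in the first group and 238422 to 291998 CPM in Tg-poor C cells. The limit was set after these values were seen, and a gene that travels with Tg had to be low in Tg-poor cells. Doublet scores had been filtered, and whether the cells rich in Tg held more than 1 cell was not tested.

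In Tg-poor C cells Pax8, Foxe1 and Tshr were near 0 while Nkx2-1 and Hhex were not. Pax8 was left with 3, 4, 2 and 5 UMIs in the 4 libraries (3.88, 4.24, 6.40 and 9.50 CPM), a level beside the 3.67, 1.07, 1.90 and 1.69 CPM of endothelial cells under the same limit. Foxe1 was left with 5, 0, 2 and 6 UMIs and Tshr with 0, 0, 1 and 1 UMIs, where 0 UMIs allow up to 3.88 CPM in the library labelled day 5 and 3.18 CPM in that labelled day 10. Nkx2-1 kept 121, 159, 82 and 118 UMIs, or 156, 168, 262 and 224 CPM. Hhex kept 212, 221, 93 and 202 UMIs, or 274, 234, 297 and 384 CPM, a range that overlapped with TFCs only near its lower end.

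**Figure D2:**
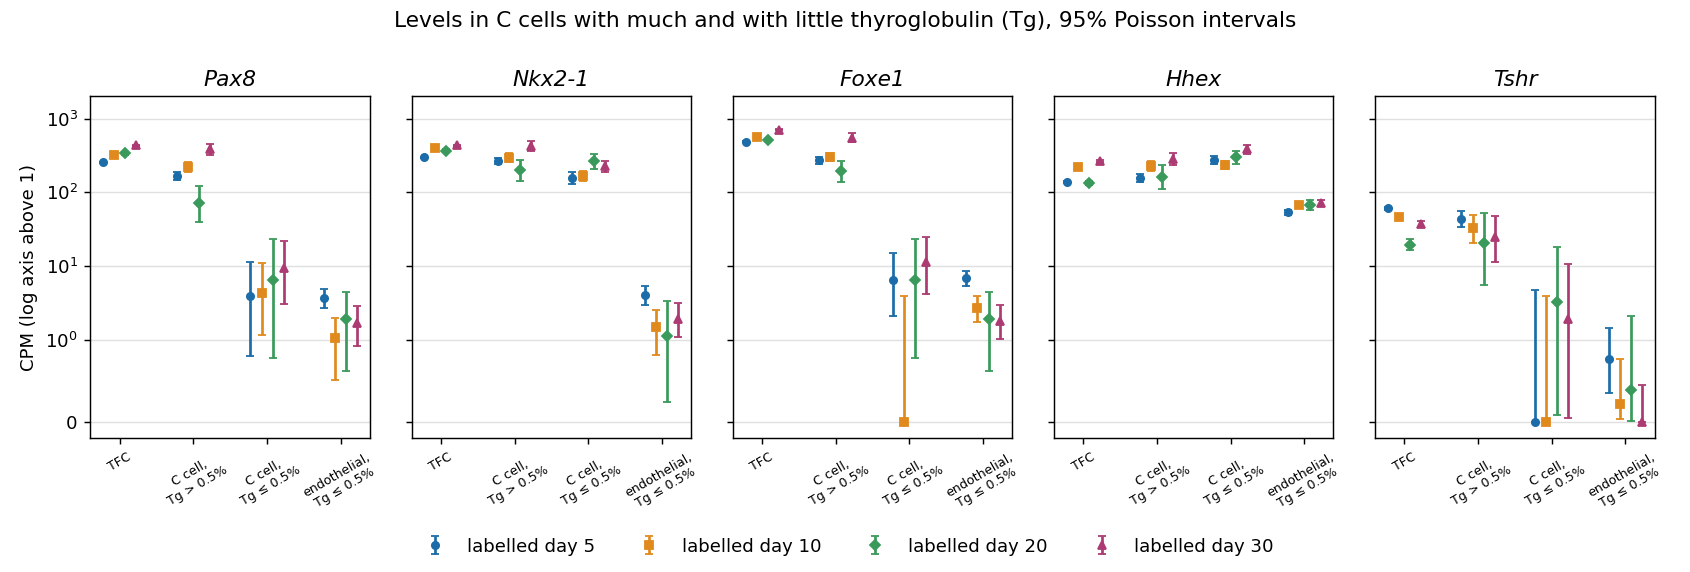
Levels of the 5 genes (CPM, on a log axis with a linear stretch near 0) in TFCs, in C cells with over 0.5% or at most 0.5% of UMIs from Tg and in endothelial cells with at most 0.5%, 1 point per library as labelled with exact 95% Poisson intervals. Pax8, Foxe1 and Tshr lie at or below 11.4 CPM in the C cells with at most 0.5% Tg, whereas Nkx2-1 stays between 156 and 262 CPM and Hhex between 234 and 384 CPM.

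Pooled over the libraries, TFCs held 59.0 times the Pax8 level of Tg-poor C cells (95% interval 35.1 to 108, 18442 against 14 UMIs). For Foxe1 the ratio was 110 (64.4 to 207, 31975 against 13 UMIs), raised by the library labelled day 10 with 0 UMIs in these C cells. For Tshr, with 2 UMIs in these C cells, the ratio was 60.1 (16.6 to 497). Nkx2-1 in TFCs was 1.91 times as high (1.74 to 2.10) and Hhex 0.644 times as high (0.597 to 0.695). These and all following intervals cover counting error only. With non-follicular cells limited to at most 0.5% Tg, Nkx2-1 differed between TFCs and C cells by a log2 fold change of 0.66 ± 0.31 (SE, adjusted p = 0.0951, edgeR's quasi-likelihood test) and Hhex by -0.95 ± 0.49 (SE, adjusted p = 0.121, edgeR), neither called, where 38.8% of genes were called, 21.5% higher and 17.3% lower.

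C cells were also set against endothelial cells, a class that should lack Pax8, Nkx2-1, Foxe1 and Tshr but in which Hhex is known. With all C cells, the log2 fold changes were 5.19 for Pax8, 6.50 for Nkx2-1, 5.28 for Foxe1, 5.25 for Tshr and 2.04 ± 0.53 for Hhex (SE, adjusted p = 0.0011, edgeR's quasi-likelihood test), with all 5 called higher where 25.2% of genes were called higher, 25.3% lower and 50.5% in either direction. Under the limit of 0.5% Tg, Nkx2-1 (6.82) and Hhex (2.55 ± 0.51, SE, adjusted p = 3.9e-05, edgeR) stayed called, beside 49% of 13003 genes called, 24.7% higher and 24.3% lower. Foxe1 (0.98, adjusted p = 0.156, edgeR) and Tshr (1.52, adjusted p = 0.339, edgeR) lost their calls, over ranges of adjusted p from 4.0e-12 to 0.156 and 4.1e-12 to 0.339 among their alternatives. These values rest on 13 and 2 UMIs in C cells against 125 and 12 in endothelial cells. Genes that travel with Tg had to be low under this limit, so the lost calls are no separate evidence. Pax8 remained called at 1.80 (adjusted p = 0.0078, edgeR, over a range of 1.3e-14 to 0.0078), and this value rests on 14 UMIs in C cells.

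Hhex was the member found in non-epithelial classes. Beside TFCs and C cells it stood at 57.3 to 138 CPM in dendritic cells, 80.1 to 101 in B cells, 54.0 to 72.4 in endothelial cells, 52.7 to 88.5 in monocytes, 51.1 to 93.4 in neutrophils and 49.7 to 67.6 in macrophages. In fibroblasts it stood at 0.940 to 3.87 CPM, 1.15 to 1.65 times its TFC value per Tg UMI. Lymphatic endothelial cells, with 88 cells in 3 libraries, held 29.8 to 91.0 CPM. B cells lay above endothelial cells in every library, and neighbouring classes from endothelial cells to macrophages overlapped. T or NK cells ranged from 3.44 to 42.4 CPM and mural stromal cells from 0.919 to 79.6 CPM.

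B cells held 48, 78, 14 and 104 Hhex UMIs in the libraries labelled day 5, 10, 20 and 30, or 80.1, 85.8, 81.2 and 101 CPM. Against the mean of the other non-epithelial classes this was a log2 fold change of 1.66 ± 0.41 (SE, adjusted p = 0.0011, edgeR's quasi-likelihood test), where 33.9% of genes were called and 18.7% called higher. In endothelial cells the same comparison gave 0.88 ± 0.37 (SE, adjusted p = 0.0472, edgeR), where 43.2% of genes were called, 28.6% higher and 14.5% lower. The B cell call held under all 14 alternatives and the endothelial call under 7 of 14, so the endothelial value lies at the edge of the threshold. With cells limited to 0.5% Tg these changes were 2.01 in B cells and 1.18 in endothelial cells. Nkx2-1 and Tshr were called lower in endothelial cells than in those classes (-1.24 and -1.55), but both turned to positive values without the library labelled day 5 (0.08 and 0.37) and under the limit on Tg (0.06 and 0.65). Endothelial cells of the libraries labelled day 5, 10, 20 and 30 held only 79, 29, 4 and 26 Nkx2-1 UMIs and 18, 3, 1 and 0 Tshr UMIs. Medians of Tshr in the other non-epithelial classes ran from 0 to 0.572 CPM, so these calls compare values near 0. Pax8, not called there (-0.98, adjusted p = 0.114, edgeR, over a range of 0.0368 to 1 among its alternatives), stood at 0.67 without the library labelled day 5.

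Single cells were compared at an equal depth, after each cell was thinned to 2000 UMIs and shallower cells were left out. This left 2334, 467, 321 and 541 TFCs in the libraries labelled day 5, 10, 20 and 30, and left out 429, 2, 80 and 186. Pax8 was then found in 39.3%, 45.0%, 46.7% and 56.2% of TFCs and in 1.06%, 0.567%, 0.580% and 0.323% of endothelial cells. Before thinning its shares in TFCs were 72.2%, 91.3%, 76.3% and 75.7%, at median depths of 7505, 12847, 12541 and 12219 UMIs. Foxe1 was found in 62.5%, 66.8%, 64.8% and 72.6% of thinned TFCs and Nkx2-1 in 44.0%, 56.1%, 47.0% and 61.9%.

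Hhex was found in 23.0%, 34.7%, 24.0% and 36.6% of thinned TFCs. In endothelial cells it was found in 8.76%, 10.4%, 11.9% and 12.9%, and in fibroblasts, which should lack it, in 0.587%, 0.197%, 0.261% and 0.409%. Tshr was found in 11.4%, 9.42%, 1.56% and 6.47% of thinned TFCs, and in 0.337%, 0.0945%, 0.290% and 0% of endothelial cells, where 0 of 620 cells allows a share of up to 0.484% of cells with a UMI at this depth, not of cells expressing the gene. In Tg-poor C cells Hhex was found in 35.5% to 45.5% and Nkx2-1 in 21.4% to 40.9%. Pax8 was found in 0%, 1.59%, 0% and 2.38% of the same 76, 63, 22 and 42 cells, where a count of 0 allows up to 3.95% and 13.6% of cells with a UMI at this depth in the libraries labelled day 5 and 20.

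Most TFCs held UMIs of more than 1 factor even at this depth. Exactly 2 of the 4 factors were found in 37.5%, 37.3%, 36.8% and 33.5% of TFCs in the libraries labelled day 5, 10, 20 and 30. At least 3 of the 4 factors were found in 19.4%, 32.3%, 25.2% and 43.1%. All 4 were found in 2.61% (95% Clopper-Pearson interval 2.005 to 3.34), 5.78% (3.84 to 8.30), 2.80% (1.29 to 5.26) and 10.7% (8.24 to 13.6). None was found in 10.2%, 5.14%, 7.48% and 2.96%. Endothelial cells held none of the factors in 87.5%, 88.4%, 87.0% and 86.3% of cells at the same depth, and Tg-poor C cells in 52.6%, 38.1%, 27.3% and 47.6%. Without thinning all 4 factors were found in 42.3%, 78.0%, 60.6% and 64.5% of TFCs, so the share moved with depth.

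**Figure D3:**
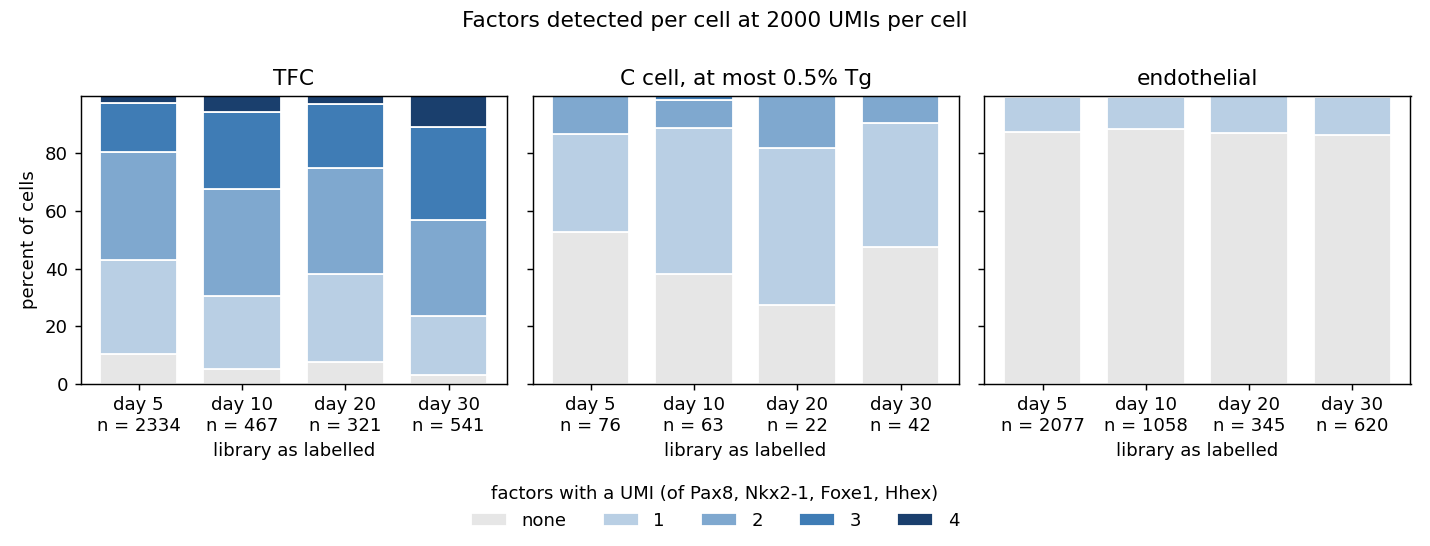
Stacked shares of cells (percent, axis from 0) with UMIs of none, 1, 2, 3 or 4 of the factors Pax8, Nkx2-1, Foxe1 and Hhex after thinning each cell to 2000 UMIs, for TFCs, C cells with at most 0.5% Tg and endothelial cells, 1 bar per library as labelled with its number of cells below. The TFC bars hold 2.96% to 10.2% of cells with none of the factors and 2.61% to 10.7% with all 4, and most endothelial cells hold none.

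At equal depth the share of TFCs with 1 factor differed little between cells with and without another. For each ordered pair of factors in each library, the share of TFCs with the second factor was compared between cells with and without the first, which gave 48 values. The differences ran from -8.51 to 7.93 percentage points with a median of 0.518, 26 of them above 0, and the intervals of both shares overlapped in all 48. Both orders of a pair come from the same cells and share their sign, so the 48 values are not independent. The thinned factors averaged 0.262 to 1.54 UMIs per cell, so sampling could hide a link between factors, and its absence was not tested. Without thinning the differences ran from 5.61 to 67.4 points with a median of 45.3, and the intervals were apart in 44 of 48, at depths that differed between cells. The variance of thinned UMI counts over TFCs, divided by their mean, is near 1 for sampling noise alone. For genes with few UMIs per cell it moves little from 1 unless their spread is large. It was 1.08 to 1.17 for Pax8, 0.992 to 1.16 for Nkx2-1, 1.16 to 1.41 for Foxe1 and 0.908 to 1.11 for Hhex. For Tshr it was 0.988 to 1.03. For Tg it was 18.1 to 26.3, which cannot be set beside the factors, since Tg has far more UMIs per cell.

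Between libraries the 4 factors and the receptor gene went apart in TFCs. With the library labelled day 30 set over that labelled day 5, log2 ratios were 0.77 for Pax8 (95% interval 0.72 to 0.82), 0.54 for Nkx2-1 (0.49 to 0.58), 0.54 for Foxe1 (0.50 to 0.58) and 0.92 for Hhex (0.85 to 0.98). For Tshr it was -0.71 (-0.85 to -0.57), and -1.31 (-2.09 to -0.69) with at most 10000 UMIs per cell. The median ratio of 9067 genes was 0.25, so all 4 factors lay above it and Tshr below. Outside counting error lay 77.4% of these genes, 57.8% above 0 and 19.6% below, so an interval that leaves out 0 is common between these single libraries.

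**Figure D4:**
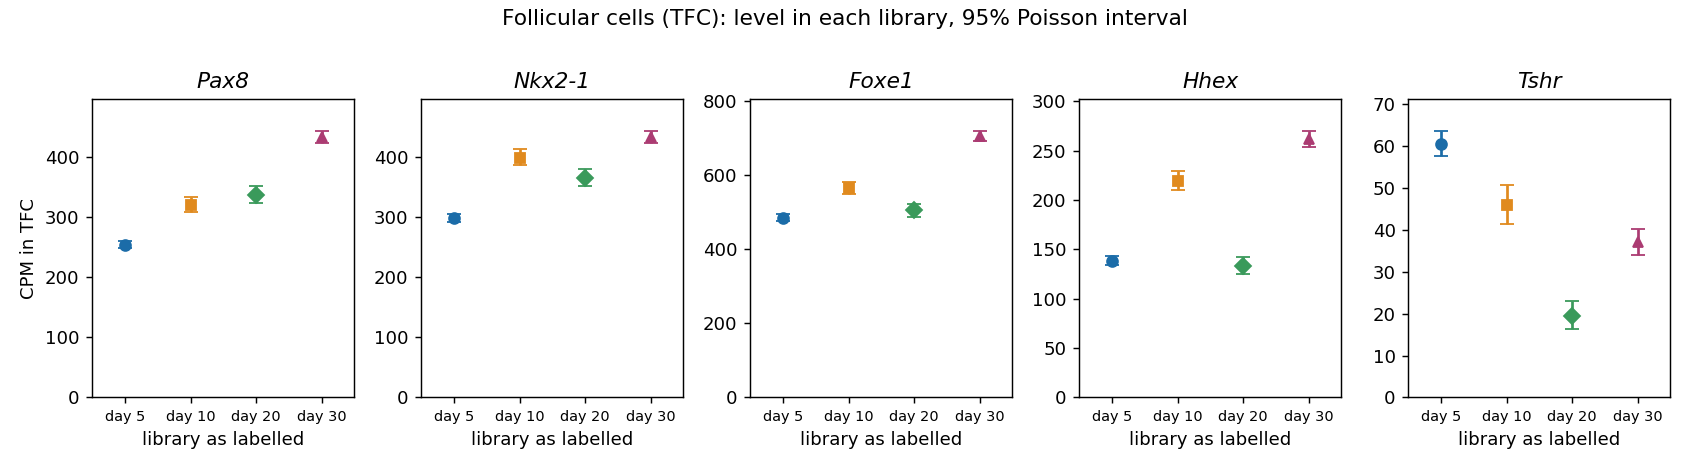
Levels of the 5 genes in TFCs (CPM, axes starting at 0) in the libraries labelled day 5, 10, 20 and 30, with exact 95% Poisson intervals that cover counting error. The 4 factors have their highest values in the library labelled day 30 and Tshr in that labelled day 5, and Hhex and Tshr have their lowest values, 133 and 19.5 CPM, in the library labelled day 20.

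The steps between neighbouring labels were not all in 1 direction. From the library labelled day 5 to day 10 the 4 factors lay 0.22 to 0.67 higher on the log2 scale and Tshr lay at -0.40, where 68.2% of 8890 genes were outside counting error, 48% higher and 20.2% lower, and the median was 0.18. From day 10 to day 20 Pax8 did not differ beyond counting error (0.07, -0.01 to 0.15), and Nkx2-1 (-0.13), Foxe1 (-0.16), Hhex (-0.72) and Tshr (-1.23) were lower, where 44% of 9031 genes were outside it, 16.5% higher and 27.5% lower, and the median was -0.05. From day 20 to day 30 all 5 were higher, by 0.24 to 0.97, where 53% of 9202 genes were outside it, 36.9% higher, and the median was 0.11.

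TFCs of the 4 libraries also differed in RNA of other cells and in depth. In TFCs of the libraries labelled day 5, 10, 20 and 30 Calca stood at 127, 893, 1237 and 84.7 CPM, the summed T cell markers at 1.03, 5.69, 172 and 16.7 CPM, and hemoglobin genes at 465, 666, 76.2 and 538 CPM. The median share of mitochondrial UMIs was 3.54%, 4.33%, 6.91% and 4.28%, highest in the library labelled day 20, where Hhex and Tshr were lowest. The 10 immediate-early and stress genes, which respond to tissue digestion, summed to 7099, 11946, 7578 and 8458 CPM. Tg stood at 51431, 41961, 68399 and 34341 CPM, highest where Hhex and Tshr were lowest and lowest where the 4 factors were highest. Log2 ratios of the library labelled day 30 over day 5 were rerun for Pax8, Nkx2-1, Foxe1, Hhex and Tshr, in this order. Without Tg in the denominator they were 0.74, 0.51, 0.51, 0.89 and -0.73. With at most 5% mitochondrial UMIs they were 0.82, 0.58, 0.56, 0.98 and -0.67. With at most 10000 UMIs they were 0.62, 0.60, 0.53, 0.90 and -1.31. Ratios with the library labelled day 20 were not rerun so. The part of RNA of other cells and of immediate-early genes in the ratios was not tested.

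TFCs fell into 3, 1, 2 and 3 clusters in the libraries labelled day 5, 10, 20 and 30. The 3 clusters of the library labelled day 5, led by Ager and Folr1 (1089 cells), Bpifa1 and Scgb3a2 (953 cells) and Grp and Krt18 (721 cells), held Pax8 at 250, 251 and 260 CPM and Nkx2-1 at 298, 294 and 301 CPM. Their Foxe1 levels were 499, 591 and 437 CPM and their Tshr levels 64.8, 53.3 and 58.1 CPM. Pax8 and Nkx2-1 were thus alike in these clusters within counting error, and Foxe1 was not. Hhex stood at 139, 121 and 143 CPM, with the second cluster below the third beyond counting error. The shallow clusters of the 2 libraries with the oldest labels stood lower in Pax8. The 98 cells at a median of 1207 UMIs in the library labelled day 20 held 169 CPM against 341 in the other cluster, and the 220 cells at a median of 1009 UMIs in that labelled day 30 held 286 CPM against 433 and 447. In the same order Nkx2-1 stood at 250 against 369 CPM and at 387 against 411 and 516 CPM. Foxe1 did not share this, at 500 against 505 CPM and at 713 against 685 and 781 CPM. Hhex stood at 125 against 133 CPM and at 262 against 246 and 316 CPM. Tg was lower in both shallow clusters, at 21633 against 69337.5 CPM and at 10030 against 37970.5 and 23798 CPM. These values are descriptions, since the clusters were formed on the same cells.

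A small number of TFCs carried at least 0.1% of their UMIs from Mia, a secreted protein gene, and were compared with the other TFCs of at least 1000 UMIs. There were 47, 25 and 20 such cells in the libraries labelled day 5, 10 and 30. Nkx2-1 stood in them at 385, 525 and 600 CPM, against 297, 391 and 430 CPM in the others, higher in 3 of 3 libraries. The log2 fold change of Nkx2-1 was 0.47 ± 0.13 (SE, adjusted p = 0.026, edgeR's quasi-likelihood test), where 7.66% of 11721 genes were called, 4.85% higher and 2.81% lower. This call was lost in 6 of 9 alternatives, over a range of adjusted p from 0.0143 to 0.553. Pax8 (0.11, adjusted p = 0.812, edgeR), Foxe1 (-0.09, adjusted p = 0.816) and Hhex (0.04, adjusted p = 0.944) were not called. Tshr, at 34.6, 29.8 and 42.6 CPM against 61.4, 47.0 and 37.1 CPM, was not called either (-0.48, adjusted p = 0.255, edgeR), though it was without the library labelled day 30 (-0.75, adjusted p = 0.027, edgeR, over a range of 0.027 to 0.830).

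**Figure D5:**
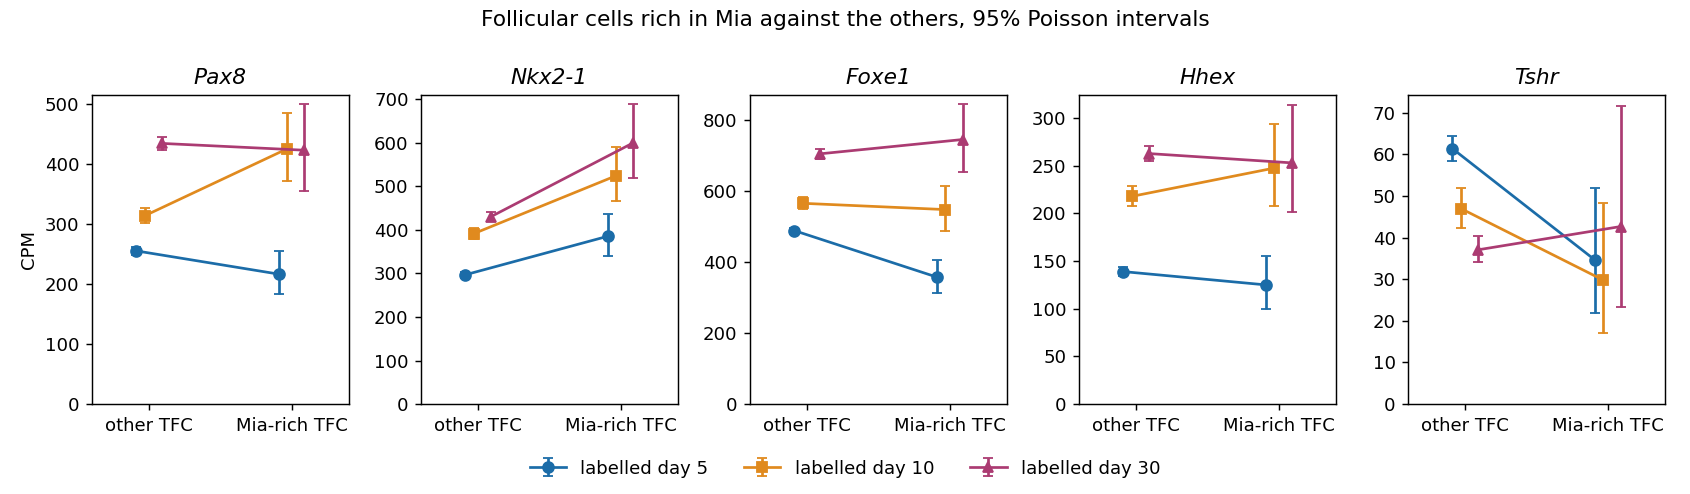
Levels of the 5 genes (CPM) in Mia-rich TFCs and in the other TFCs of at least 1000 UMIs, with points of 1 library joined by a line and exact 95% Poisson intervals. Nkx2-1 is higher in Mia-rich cells in all 3 libraries, and Pax8, Foxe1, Hhex and Tshr do not move one way in all 3.

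In Mia-rich cells 5 of 12 tested genes of a list of 22 further thyroid development factors were called higher and 0 lower, beside 4.85% and 2.81% of all genes. The foregut factors Pax9 (log2 fold change 5.01) and Foxa1 (3.90) led them, named after their values were seen. Of 12 tested thyroid function genes 2 were higher and 3 lower, beside the same shares of all genes, with Tg at -0.59, the iodide exporter gene Slc26a7 at -1.09 and the iodotyrosine deiodinase gene Iyd at -0.58 lower, and the adhesion gene Cdh16 higher at 0.92. Immediate-early and stress genes were higher for 5 of 10 and lower for 1, beside these shares. Calca also stood higher in these cells, at 102, 6298 and 308 CPM against 124, 533 and 79.4 CPM in the others, higher in 2 of 3 libraries. Mia was also found in C cells. In the libraries labelled day 5, 10 and 30 it stood at 84.0, 80.5 and 87.4 CPM in Tg-poor C cells. The other TFCs held 29.5, 28.4 and 29.1 CPM and Mia-rich TFCs 1969, 2545 and 1773 CPM. Pax9 and Foxa1 averaged 69.9 and 31.7 CPM in C cells, against 8.22 and 3.44 CPM in all TFCs. The part of C cell RNA in these differences was not tested.

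Further factors of thyroid development were called in both directions. Of 19 tested genes of that list, 3 were called higher and 7 lower in TFCs than in C cells, beside 14.4% and 11.8% of all genes, with a median log2 fold change of -0.69 against 0.15 over all genes. Against endothelial cells 9 were higher and 2 lower in TFCs, beside 27.5% and 25.2% of all genes, and 13 were higher and 1 lower in C cells, beside 25.2% and 25.3%. Sox9, a factor of epithelial and cartilage progenitors, averaged 380 CPM in TFCs and 109 CPM in C cells over the 4 libraries (log2 fold change 1.94, adjusted p = 0.0021, edgeR). The receptor gene Fgfr2 (1.81) and the survival gene Bcl2 (1.59) were higher in TFCs as well. Isl1, a factor of endocrine cells, averaged 31.5 CPM in TFCs and 112 CPM in C cells (-1.86, adjusted p = 0.00064, edgeR).

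Among the 7 genes called lower were 3 factors known from foregut. Foxa2 averaged 0.626 CPM in TFCs and 63.0 CPM in C cells, Foxa1 3.44 and 31.7 CPM, and Pax9, a relative of Pax8, 8.22 and 69.9 CPM, and these genes were named after their values were seen. Their levels in C cells were 39.3 to 88.5 CPM for Foxa2 and 50.2 to 86.6 CPM for Pax9, above every TFC value. Under the limit of 0.5% Tg the list had 3 genes higher and 7 lower in TFCs than in C cells, beside 21.5% and 17.3% of all genes, but its median moved to -0.081 against 0.11 over all genes. In C cells against endothelial cells it had 10 higher and 3 lower under that limit, beside 24.7% and 24.3%.

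Relatives of the members were mostly too low to test. Of 20 genes, which included other Pax, Nkx2 and Lgr genes, 6 could be tested, and 2 were higher and 1 lower in TFCs than in C cells, beside 14.4% and 11.8% of all genes. The R-spondin receptor gene Lgr4 averaged 77.5 CPM in TFCs, 24.9 in C cells and 6.28 in endothelial cells, and Nkx2-2 averaged 18.99, 6.34 and 0.330 CPM. The gonadotropin receptor genes Lhcgr and Fshr, closest to Tshr, held 0 UMIs in TFCs and C cells, which allows up to 0.434 CPM in the TFCs and 5.90 CPM in the C cells of a library.

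In the signalling chain below Tshr more genes were called lower than higher in TFCs. Of 26 genes 21 were tested, and 2 were higher and 5 lower in TFCs than in C cells, beside 14.4% and 11.8% of all genes, with a median log2 fold change of -0.16 against 0.15. Under the limit of 0.5% Tg 5 were higher and 7 lower, beside 21.5% and 17.3%. Against endothelial cells 3 were higher and 12 lower in TFCs, beside 27.5% and 25.2% of all genes, with a median of -0.82. Gnas, which encodes the stimulatory G protein, averaged 1080 CPM in TFCs, 4987 in C cells and 2236 in endothelial cells. It was lower in TFCs than in C cells by a log2 fold change of -2.23 and than in endothelial cells by -1.0002, with no overlap in either case. The catalytic kinase gene Prkacb averaged 42.6 CPM in TFCs and 144 in C cells (-1.77), and the exchange factor gene Rapgef3 26.2 CPM in TFCs and 123 in endothelial cells (-2.21).

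The G proteins of the other arm, Gnaq and Gna11, were lower in TFCs than in endothelial cells (-0.99 and -1.70), as were Rap1a (-0.98) and the regulatory kinase gene Prkar1a (-0.63). The ligand genes Tshb, Cga, Gpha2 and Gphb5, which are known from the pituitary and a few other tissues, averaged 0 to 1.37 CPM in the 3 classes.

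Genes of thyroid hormone synthesis followed the order of classes seen for Pax8, Foxe1 and Tshr. All 10 tested of 13 were higher in TFCs than in C cells (median log2 fold change 1.84) and in endothelial cells (6.69), beside 14.4% and 27.5% of all genes, and all 10 were higher in C cells than in endothelial cells (4.71), beside 25.2%. They included Slc26a7 (2.22 against C cells), Iyd (1.98), Cdh16 (1.77) and the deiodinase gene Dio1 (1.84). Under the limit of 0.5% Tg, 1 of the 10 was higher and 1 lower in C cells than in endothelial cells, beside 24.7% and 24.3% of all genes, and the median fell to 0.17. The median log2 fold change of TFCs against C cells was 6.95 under that limit. Tg itself is on this list, and genes that travel with Tg had to be low in C cells under the limit. The values under the limit are therefore no separate evidence. Tg, Iyd and Cdh16 were also among the markers that named the TFC clusters.

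Immediate-early and stress genes were called higher in TFCs than in C cells for 1 of 10 (Fos, 0.84), beside 14.4% of all genes, and for 3 of 10 under the limit of 0.5% Tg, beside 21.5%. They were called higher than in endothelial cells for 5 of 10, beside 27.5%. They were measured as a check on digestion, and their part in the levels of the members was not tested.

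The genes most like each member were sought over 58 sums of class and library, by Pearson correlation of log2(CPM + 10) among 12965 genes. These sums share libraries and differ in depth, and the values are descriptions. Pax8 was most like Cdh16 (0.98), Slc4a5, Gm12446, Ppp1r1b and Sall1. Nkx2-1 was most like Ckmt1 (0.97), Foxe1, Cldn3, Krt7 and Mal2. Foxe1 was most like Calml3 (0.98), Iyd, Gpx2, Nkx2-1 and Pax8, and Tshr like Amdhd1 (0.95), Tfcp2l1, Tekt1, Gm12446 and Slc26a7. Hhex was most like Casz1 (0.78), Rogdi, Mroh1, Abca3 and Exoc6. Correlations among Pax8, Nkx2-1, Foxe1 and Tshr were 0.86 to 0.97, and those of Hhex with them 0.49 to 0.57.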

How the data were processed

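Thyroid cells were profiled by 10x Genomics 3' sequencing, 1 library for each of 4 ages. The authors aligned reads to the mouse genome mm10 with Cell Ranger and deposited UMI counts per gene and droplet barcode with no cell filter and no normalization, and these raw counts were used here. The submitters' processing notes name Seurat 3.6.3 and 3.1.4. A deposited table of raw counts for the barcodes the authors took as cells served as the list of cells, each barcode going to the library that held most of its UMIs, and the numbers it gives to barcodes assigned no cell.

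Cells had at least 200 UMIs, at most 10% mitochondrial and at most 5% hemoglobin UMIs, with no upper limit of UMIs. Doublets were scored with Scrublet in scanpy 1.11.5, and the 6% of cells with the highest scores per library were removed, since the automatic threshold marked almost no cell in 3 libraries. Each library was clustered alone (2000 variable features without the members and the list genes other than markers, 30 components, Leiden resolution 0.9). Clusters were named by the class whose markers were raised the most on average in log2 fold. It stayed unnamed with fewer than 3 markers detected, with 33% or more of cells of high doublet score, or when shallow and without a clear margin, and the last 2 limits were set after values were seen. The members and gene lists were chosen with earlier results of these data known. The limit of 0.5% Tg was also set after seeing the data.

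UMIs were summed per class and library where a class had at least 10 cells and tested with edgeR 4.0.16 (TMM, filterByExpr, quasi-likelihood test, library as block, R 4.3.3), with Benjamini-Hochberg adjustment over all genes tested and a threshold of 0.05. In the comparisons between classes all named classes entered 1 fit and shared its estimate of the spread. Their p-values therefore measure the spread between these 4 libraries over all classes, not only over the classes compared. Nothing says that the libraries differ only in age. In data simulated for TFCs against C cells over 13072 genes, 97% of 4-fold and 18% of 2-fold changes were recovered, with 1 false call. The simulation gave every gene the same spread and the libraries no difference except depth, so these shares may not hold for the real counts. Intervals are exact Poisson or Clopper-Pearson intervals at 95%, and 0 counts are given with the level that 3 counts would make. DESeq2 1.42.0, other filters, thinning and integration in Seurat 5.3.0 were alternatives. Python 3.11.15, numpy 2.4.6, scipy 1.17.1 and matplotlib 3.10.9 were used for all other values and the plots. The text names the 5 members. From each list it names up to 8 genes that reach 100 CPM in TFCs, C cells or endothelial cells, by the size of their change, and for each member the 5 most similar genes. Genes outside this rule are markers, checks, or named as chosen after their values were seen. Some genes that this rule names are not reported here. In situ data were not analysed here.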

Additional observations from a re-analysis of the deposited data

How the results depend on the processing

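Between ages nothing could be paired, since each age has 1 library and the labels give no number shared between ages, whereas comparisons between classes had the library as a block. The 5 members kept their direction between TFCs and C cells, between TFCs and endothelial cells and between C cells and endothelial cells under all alternatives. After integration in Seurat the C cell class was 1 cluster of 543 cells led by the parathyroid gene Pth and Calca, with no parathyroid class. Its TFC class took in 291 cells led by Tg, Kdr and Flt1. Of 391 alternative values of the main results, 323 counted as unchanged. These were fold changes on the same side of the threshold, gene counts of similar size, and ratios or shares inside the main interval. Fold changes called in neither fit counted even where their sign turned. Ratios between neighbouring labels were among the 391. Genes called between TFCs and C cells numbered 3441, and 1718 to 3147 with a library left out. Thinning to 1000 UMIs, which left fewer genes to test, gave 1076 there, 3767 of 6926 between TFCs and endothelial cells, 2589 of 6638 between C cells and endothelial cells 3264 of 6580 between TFCs and all other classes, 2533 of 5670 for endothelial cells and 2364 of 4454 for B cells against the other non-epithelial classes (2831 for B cells without the library labelled day 10), and 64 of 898 between Mia-rich and other TFCs. The Mia-rich count was 488 with DESeq2, 186 without the library block and 553 to 939 with a library left out.

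Between TFCs and C cells, the calls of Pax8 (1.69), Foxe1 (1.82) and Tshr (1.25) were lost without the library block, and those of Foxe1 (1.80) and Tshr (1.31) with DESeq2. With a library left out the values were 1.37 to 2.21, 1.63 to 2.14 and 1.38 to 1.58. Nkx2-1 was called with only these classes in the fit (0.38), at most 10000 UMIs per cell (1.31) or thinning (1.07), and Hhex with only these classes (-0.66). Hhex against endothelial cells ranged from 1.31 to 1.57 with a library left out. Between C cells and endothelial cells Foxe1 (0.98) and Tshr (1.52) lost their calls at 0.5% Tg, an alternative chosen after seeing the data. In endothelial cells against the other non-epithelial classes, Nkx2-1 (-1.497 to 0.0801 with a library left out, the highest without day 5) also turned to 0.21 after integration and 0.0619 at 0.5% Tg, and Tshr (-1.54 to 0.37, the highest without day 5) to 0.33 and 0.65 and to 0.72 with at most 10000 UMIs. Nkx2-1 in Mia-rich cells was not called with no filter (0.37), no library block (0.47), doublets kept (0.38) or thinning (0.53), and ranged from 0.40 to 0.50 with a library left out, and Tshr from -0.75 to -0.24. The cause of these changes was not tested. The Mia-rich comparison was not run at 10000 UMIs or 5% mitochondrial UMIs, which left too few cells, and 1000 UMIs was already its limit.

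Log2 ratios from the library labelled day 5 to day 30 moved for Pax8 to 0.62 with at most 10000 UMIs, 0.82 with at most 5% mitochondrial UMIs and 0.56 with cells weighted equally, for Nkx2-1 to 0.60 with at most 10000 UMIs, for Foxe1 to 0.62 after integration, and for Tshr to -1.31 with at most 10000 UMIs and -0.9999 with cells weighted equally. The steps between neighbouring labels were 0.34, 0.0725 and 0.36 for Pax8, 0.42, -0.13 and 0.24 for Nkx2-1, 0.22, -0.16 and 0.48 for Foxe1, 0.67, -0.72 and 0.97 for Hhex, and -0.40, -1.23 and 0.92 for Tshr. The share of TFCs with all 4 factors was 0.160%, 0.640%, 0.548% and 2.10% at 1000 UMIs, 22.1%, 37.5%, 29.8% and 52.2% at 5000 UMIs and 42.3%, 78.0%, 60.6% and 64.5% without thinning, and with doublets kept 5.56% in the library labelled day 20. Depth limits Tshr and all values in C cells, whose sums held 508315 to 2288718 UMIs.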
